A study of Homo sapiens with 60 samples.

Results

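The 32 genes described here encode heat shock transcription factors, the chaperones whose genes these factors are known to control, and the cochaperones that work with them. They were chosen by name and not by a rule on measured values, although earlier results of these data were known. Each symbol was matched to an Ensembl identifier in the deposited table of 60675 gene rows. All 32 matched 1 identifier each, and all 32 passed the filter on low counts, so that they were tested among 16924 genes. Although the set is named for cytosolic chaperones, HSPA9, HSPD1 and HSPE1 encode mitochondrial proteins. DNAJA4, HSPB8 and CRYAB averaged 0.487, 0.911 and 0.981 CPM (counts per 1e6 counts) in vehicle libraries, so their fold changes rest on few reads.

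HepG2 cells, a line from a human liver cancer, were cultured for 24 h with an herbal extract or with the vehicle dimethyl sulfoxide (DMSO), and their RNA was sequenced. Yijin-tang (called yijin) and Soshiho-tang (soshiho), which are 2 decoctions of several herbs extracted in water, and 70% ethanol extracts of Liriopis seu Ophiopogonis Tuber (liriope), Schisandrae Fructus (schisandra), Longan Arillus (longan) and Zizyphi Semen (zizyphus) were each given at 20, 100 and 500 µg/mL, called low, medium and high. Each of these doses had 3 libraries, and those of soshiho had 2. Ethanol extracts of Polygalae Radix (polygala; 10, 50 and 250 µg/mL) and Aucklandiae Radix (aucklandia; 11.2, 56 and 280 µg/mL) had 1 library per dose, so their values have no replicate check and no test. Per the series text, a top dose below 500 µg/mL was the concentration that inhibited the cells by 20%. The 3 vehicle libraries carry 0.1% DMSO in the sample labels, while the series text gives 2%. They also carry a sample code of their own, apart from the codes of the extract libraries. All libraries come from 1 cell line, and the labels do not say whether the replicates were separate cultures, so each test weighs a difference only against the scatter among these libraries, which may be technical.

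Heat shock factor 1 (HSF1) is held inactive in unstressed cells by chaperones such as HSP70 and HSP90. When unfolded proteins occupy those chaperones, HSF1 forms trimers, binds heat shock elements (repeats of the unit nGAAn in alternating orientation) and switches on chaperone genes. The inducible HSP70 genes HSPA1A and HSPA1B, the J protein gene DNAJB1, the nucleotide exchange factor genes HSPH1 and BAG3, and the small heat shock protein gene HSPB1 are textbook targets, whereas HSPA8 and HSP90AB1 are highly expressed without stress.

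The libraries held 20.7 to 38.0 M (mega) expected counts in total. Of 8 hepatocyte markers all 8 were detected, with a summed level of 37070 to 48664 CPM in the 54 libraries of vehicle and the replicated extracts. Of 4 fibroblast markers 1 reached 10 counts in a library (COL1A1, at most 41 counts), with DCN at most at 1, COL1A2 at 2 and COL3A1 at 4 counts. All 3 endothelial markers did (PECAM1 at most 160, VWF 32 and CDH5 20 counts), and so did 2 of 3 leukocyte markers (CD68 at most 1856 and CD14 82 counts), while PTPRC, which defines leukocytes, never passed 2 counts. Over the same 54 libraries the summed levels were 0.394 to 1.45 CPM for fibroblast, 3.96 to 6.36 CPM for endothelial and 32.4 to 51.3 CPM for leukocyte markers. Their part in the results was not tested. In the replicated groups, schisandra low replicate 1 and liriope high replicate 2 stood furthest from their groups, with an SD of 0.160 and 0.143 log2 units over expressed genes. For part of the results that rest on them, values without them are given as well.

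Among the 32 genes, the HSP90 gene HSP90AB1 was the highest per exon length in vehicle libraries, at 1122 CPM per kilobase. HSPD1, the mitochondrial chaperonin, followed at 387, HSP90AA1 at 355, HSPA8, the constitutive HSP70, at 301, and the ubiquitin gene UBB at 280 CPM per kilobase. The inducible genes HSPA1A and HSPA1B stood at 53.8 and 80.6, HSPB1 at 42.8 and HSF1 at 17.3 CPM per kilobase. HSPA1A and HSPA1B are near-identical copies whose reads the authors' counting had to share out, and HSPA8, HSP90AA1, HSP90AB1, HSPD1, HSPE1 and PTGES3 have processed pseudogenes, so the split between copies is uncertain.

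**Figure D1:**
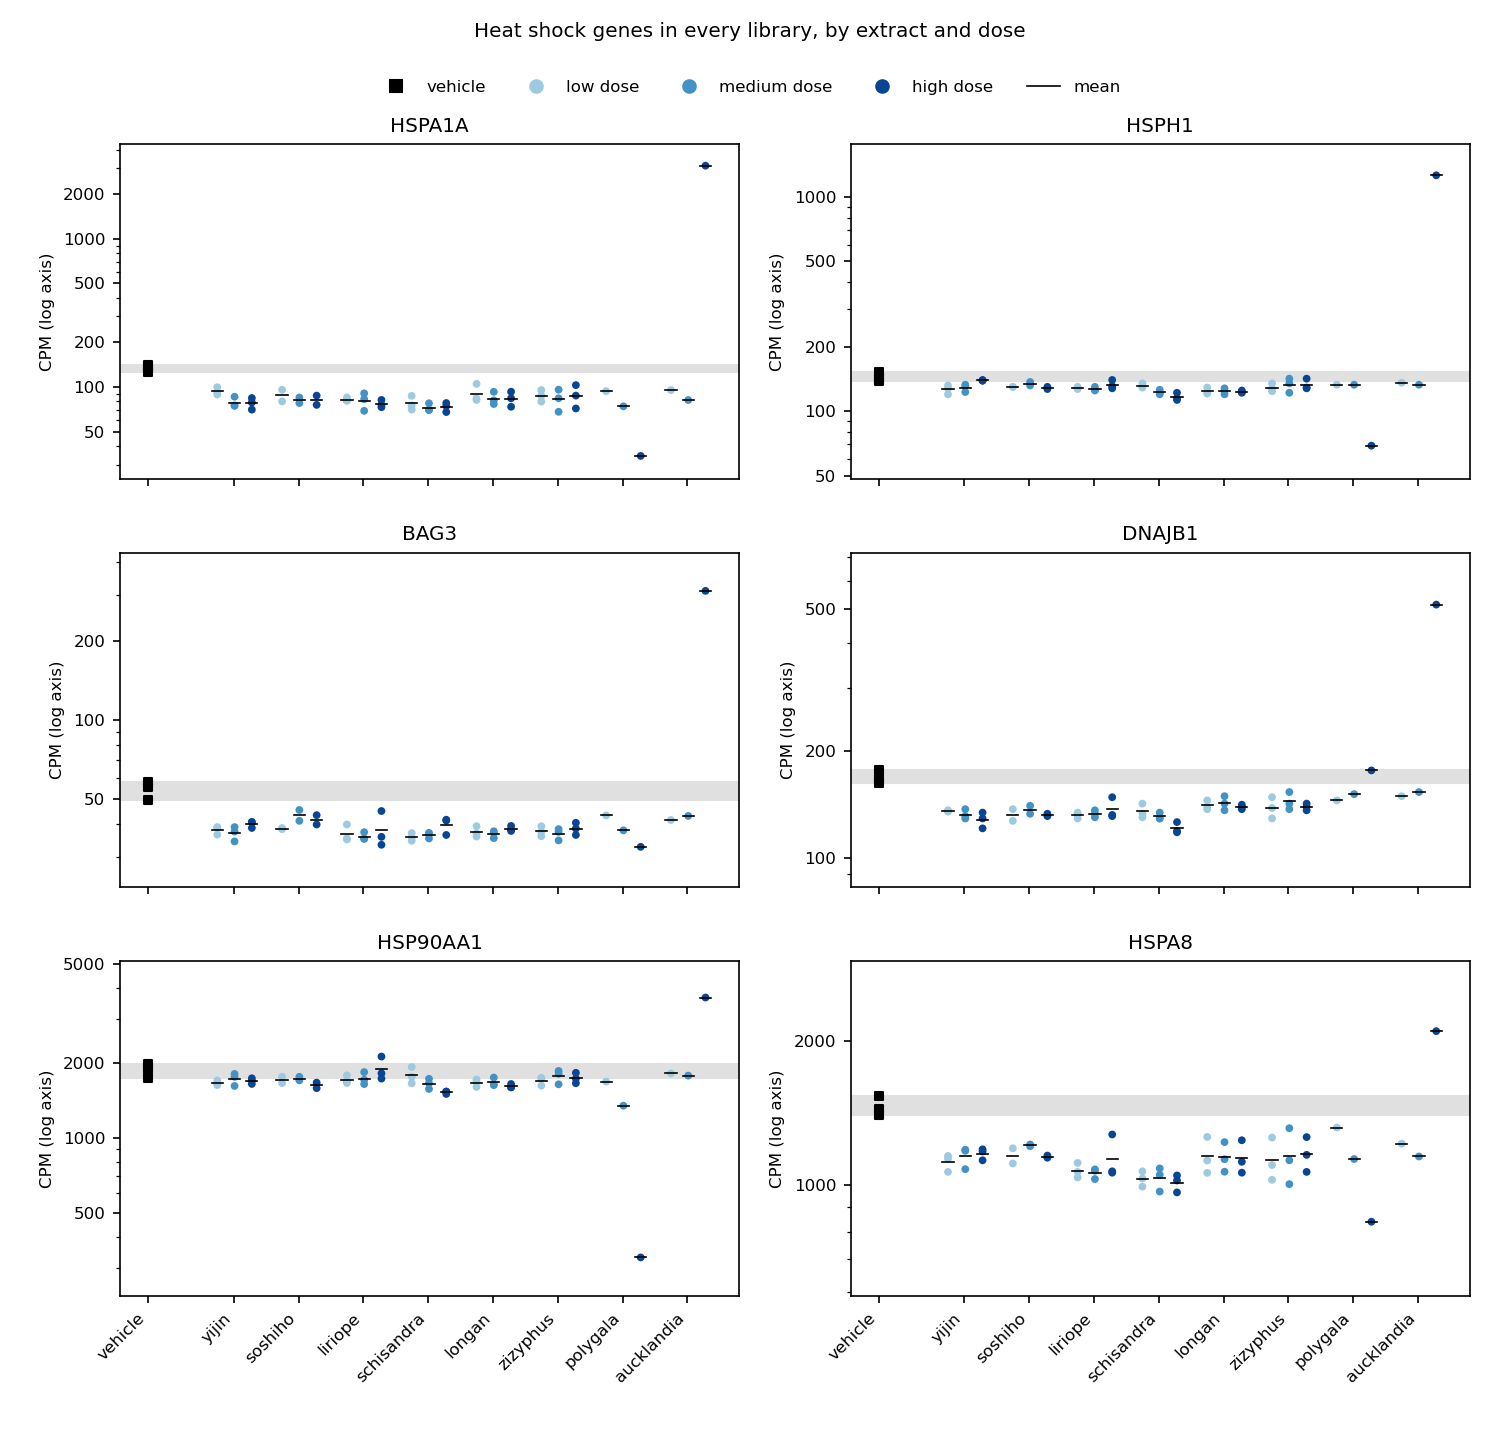
Level in CPM (log axis) of HSPA1A, HSPH1, BAG3, DNAJB1, HSP90AA1 and HSPA8 in each library, with vehicle at the left (black squares, grey band for their range) and each extract at low, medium and high dose (light to dark blue, short line for the mean). All 6 genes were highest in the aucklandia library at 280 µg/mL, where HSPA1A reached 3113 CPM.

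The high dose of aucklandia gave the highest level of most of these genes in the series. Between its 280 and 11.2 µg/mL libraries, 22 of 32 genes were more than 1.5-fold higher and 0 were more than 1.5-fold lower, on the log2(CPM + 1) scale. Over all genes tested, 18.5% were more than 1.5-fold higher and 18.2% more than 1.5-fold lower. The median log2 difference of the 32 was 0.84, beside 0 over all genes. At 56 µg/mL, 0 of the 32 genes differed more than 1.5-fold in either direction from the low dose, beside 0.88% of all genes higher and 0.638% lower, with a median of 0.026 for the 32. These are single libraries, and the comparison is between libraries and not conditions.

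HSPA1A, the inducible HSP70, had 95.4, 81.7 and 3113 CPM at 11.2, 56 and 280 µg/mL of aucklandia. Its 67415 counts at the high dose have an exact 95% Poisson interval of 66907 to 67926, against 2613 counts (2514 to 2715) at the low dose, and these intervals cover counting error only. Its copy HSPA1B had 155, 127 and 2767 CPM at the same doses. In the other 59 libraries HSPA1B ran at 1.39 to 2.26 times HSPA1A, and at the high dose of aucklandia at 0.889 times. The log2 differences between high and low dose were 5.01 for HSPA1A and 4.14 for HSPA1B. The constitutive HSP70 gene HSPA8 had 1221, 1148 and 2096 CPM, a log2 difference of 0.78, and mitochondrial HSPA9 had 460, 462 and 438 CPM.

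Genes for proteins that drive the HSP70 cycle differed widely among themselves. HSPH1, an HSP110 exchange factor, had 136, 133 and 1262 CPM at the rising doses of aucklandia. BAG3, an exchange factor that hands HSP70 clients to autophagy, had 41.4, 42.9 and 310 CPM. Both were flat up to 56 µg/mL, and at 280 µg/mL they reached 8.87 and 6.85 times the highest of the 51 libraries of the replicated extracts. The relatives of HSPH1 differed less, with log2 differences between high and low dose of 0.23 for HSPA4 and 0.27 for HSPA4L. Among J proteins, which deliver clients to HSP70, DNAJB1 had 149, 153 and 514 CPM and DNAJB4 had 6.64, 7.74 and 39.2 CPM, while DNAJB6 and DNAJA1 differed by 0.92 and 0.75 log2 units between the high and the low dose.

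HSP90 and its cochaperones were also higher at 280 µg/mL, by less. HSP90AA1, the inducible cytosolic form, had 1815, 1777 and 3659 CPM, and HSP90AB1, the constitutive form, had 3106, 3058 and 5435 CPM. The log2 differences between high and low dose were 1.27 for CHORDC1, 1.10 for the immunophilin FKBP4, 1.06 for CACYBP, 0.72 for STIP1, which links HSP70 to HSP90, and 0.45 for the ATPase activator AHSA1. The cochaperone gene PTGES3 differed by 0.027. Small heat shock proteins, which hold unfolded clients without ATP, stood at the other end: HSPB1 had 52.3, 52.8 and 342 CPM and HSPB8, the partner of BAG3, had 0.584, 0.745 and 23.2 CPM. CRYAB reached 3.97 CPM at 280 µg/mL from 86 counts (68.8 to 106), against 20 counts (12.2 to 30.9) at the low dose. The chaperonin HSPD1 differed by 0.71 log2 units and its lid HSPE1 by 0.21. The level of HSF1 itself differed by 0.39 and that of HSF2 by 0.26 log2 units between the high and the low dose.

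HSPA6, an inducible HSP70 gene, is not one of the 32 and was below the filter on low counts. That filter used the 54 libraries of vehicle and the replicated extracts. Genes seen only in aucklandia or polygala are therefore not in the shares of all genes. HSPA6 had 3679 counts (3561 to 3800) at 280 µg/mL of aucklandia, which is 170 CPM. It had 1 count at 56 µg/mL, 0 at 11.2 µg/mL and at most 3 in each of the other 59 libraries. Against the limit of 3 counts that a count of 0 allows at the low dose (0.109 CPM), its level was at least 1551-fold higher. Of 9 other measured targets and regulators of heat shock factors, 6 were more than 1.5-fold higher at the high dose and 0 lower, among them IER5 (36.9 CPM, against 5.88 at the low dose) and SQSTM1 (867 CPM, against 236). Of 25 other cochaperones 7 were higher and 4 lower. DNAJB2 was the furthest up at 109 CPM, against 37.7, and TRAP1, the mitochondrial HSP90, the furthest down at 60.3 CPM, against 156. Of 14 subunits of the cytosolic chaperonin CCT and of prefoldin 3 were higher and 2 lower, and their median log2 difference was -0.11. PFDN1, of prefoldin, was the furthest up at 96.0 CPM, against 46.4. The CCT subunit TCP1 stood at 675 CPM, against 362, while the other CCT subunits differed by -0.062 (CCT4) to -0.64 (CCT7) log2 units. The summed hepatocyte markers were 22005 CPM in the high-dose library, against 43478 CPM in the low-dose one. Of these 8 markers, 3 were more than 1.5-fold lower and 0 higher, APOB the furthest down at 7656 CPM, against 24611. Their part in the differences of the 32 genes was not tested.

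The start regions of these genes were searched for heat shock elements as a description, without a test. Known targets of heat shock factors are on the list by choice, so a share above that of all genes says nothing about aucklandia. RefSeq windows of 300 bases on GRCh38.p14, from 250 bases before to 50 after an annotated start, were found for 28 of the 32 genes; HSF1, CRYAB, FKBP4 and ST13 had none. The units were GAA and TTC in alternation with NN, any pair of bases, between neighbours. An element of 3 units (GAA, TTC and GAA, or TTC, GAA and TTC, read on both strands) was in a window of 7 of the 28 genes, which is 25%, beside 0.608% of 27305 genes with a window. An element of 2 units (GAA and TTC, or TTC and GAA, both strands, which the longer element also contains) was in a window of 17 of the 28, or 60.7%, beside 16.2% of all genes. A gene can have several windows. Per window, the longer element was in 15.6% of the 45 windows of these genes, beside 0.49% of all 35116 windows, and the shorter in 40%, beside 13.5%. The bases before the start are shown for 5 genes that differed by 0.78 to 5.01 log2 units at the high dose of aucklandia, with matches to either element in capitals, each on its gene's strand.
HSPA1A (chr6:31815293-31815542, plus strand, element of 2 units): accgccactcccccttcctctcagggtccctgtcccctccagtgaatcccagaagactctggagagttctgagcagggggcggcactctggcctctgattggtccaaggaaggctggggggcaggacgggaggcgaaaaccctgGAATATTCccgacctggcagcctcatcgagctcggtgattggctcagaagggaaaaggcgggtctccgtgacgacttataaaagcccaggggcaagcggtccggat
HSPB1 (chr7:76302423-76302672, plus strand, element of 2 units): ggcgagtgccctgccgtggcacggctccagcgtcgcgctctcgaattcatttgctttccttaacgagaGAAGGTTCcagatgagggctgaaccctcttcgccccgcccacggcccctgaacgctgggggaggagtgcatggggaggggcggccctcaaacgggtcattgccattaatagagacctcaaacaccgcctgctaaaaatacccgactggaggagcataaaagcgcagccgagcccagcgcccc
HSPA8 (chr11:123062137-123062386, minus strand, elements of 3 units): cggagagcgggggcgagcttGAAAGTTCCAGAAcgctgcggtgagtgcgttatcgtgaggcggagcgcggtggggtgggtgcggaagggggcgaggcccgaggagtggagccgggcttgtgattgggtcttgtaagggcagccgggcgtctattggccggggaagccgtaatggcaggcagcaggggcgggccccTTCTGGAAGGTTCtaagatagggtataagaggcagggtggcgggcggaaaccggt
HSP90AA1 (chr14:102087045-102087294, minus strand, elements of 3 and 2 units): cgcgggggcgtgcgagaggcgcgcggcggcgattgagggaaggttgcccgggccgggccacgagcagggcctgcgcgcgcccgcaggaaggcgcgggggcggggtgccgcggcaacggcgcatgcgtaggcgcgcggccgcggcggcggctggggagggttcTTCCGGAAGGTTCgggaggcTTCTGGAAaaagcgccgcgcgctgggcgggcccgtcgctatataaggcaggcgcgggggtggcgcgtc
HSPH1 (chr13:31162389-31162638, minus strand, no match): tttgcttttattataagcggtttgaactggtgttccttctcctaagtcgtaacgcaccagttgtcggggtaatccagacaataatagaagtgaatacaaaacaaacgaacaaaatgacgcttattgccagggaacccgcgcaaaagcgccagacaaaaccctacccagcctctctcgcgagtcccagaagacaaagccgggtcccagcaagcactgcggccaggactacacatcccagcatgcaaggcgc

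The presence of an element in these windows did not order the genes by size of difference. The 7 genes with an element of 3 units (HSPA8, DNAJB6, DNAJA1, HSP90AA1, HSP90AB1, CHORDC1 and HSPD1) differed by 0.71 to 1.27 log2 units between the high and low dose of aucklandia, with a median of 0.81. The 10 with an element of 2 units alone ranged from -0.071 for HSPA9 to 5.01 for HSPA1A, with a median of 2.09. The 11 with no match ranged from 0.027 for PTGES3 to 3.21 for HSPH1, with a median of 0.45. A match is a description of letters, and no match says only that these letters are not in these windows.

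**Figure D2:**
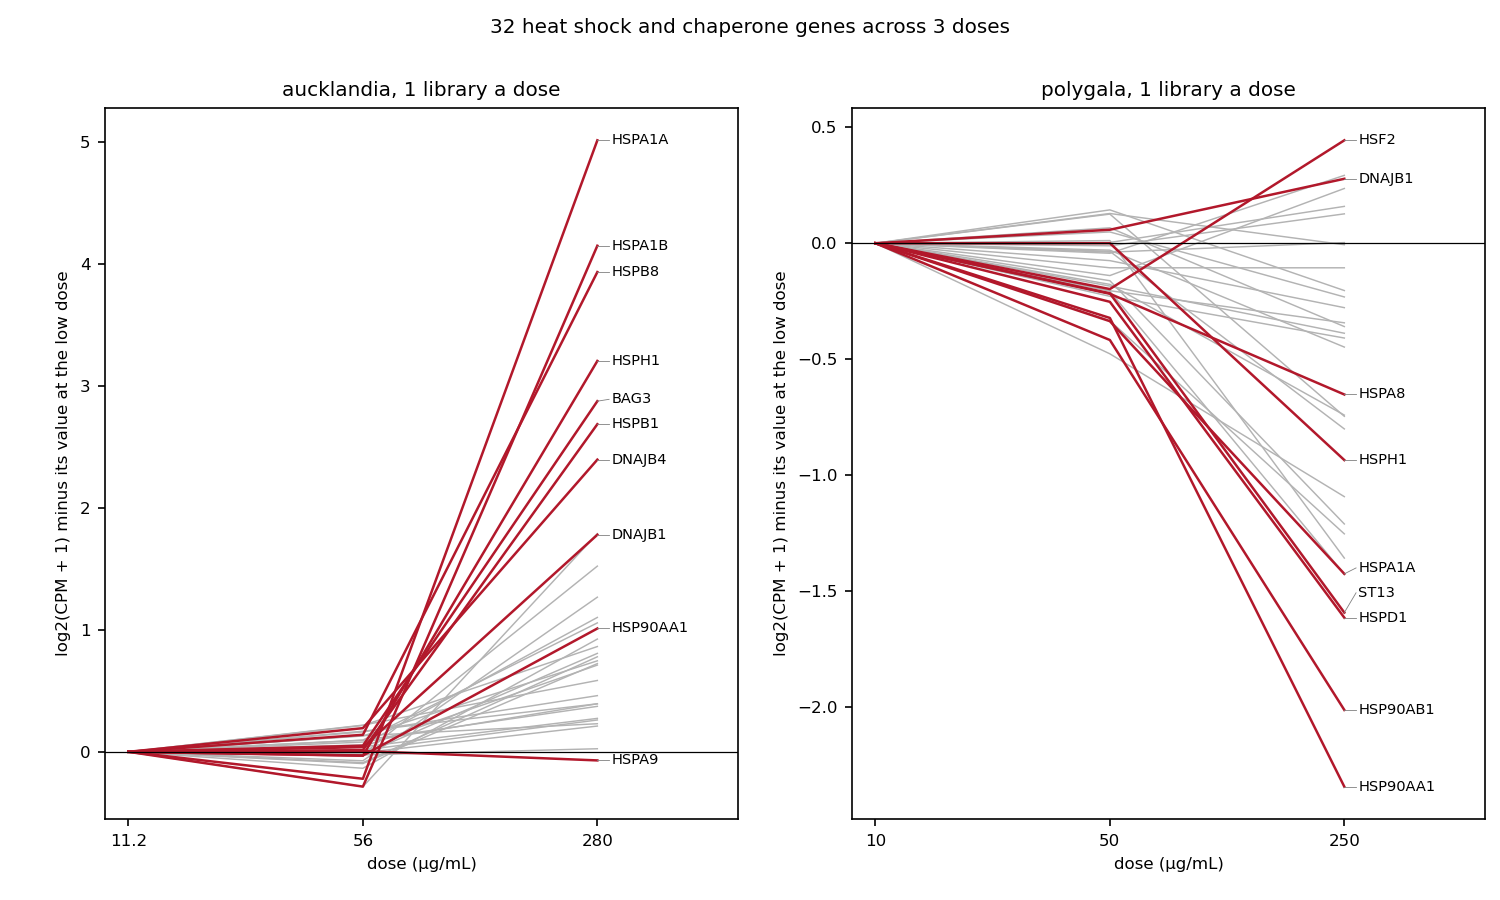
Change of each of the 32 genes from the low dose, as log2(CPM + 1) minus its value at the low dose, across the 3 doses of aucklandia (left) and polygala (right); 1 line per gene, named lines in red. In aucklandia the lines part only at 280 µg/mL, with HSPA1A at 5.01, and in polygala HSP90AA1 is lowest at -2.34.

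At the high dose of polygala these genes were lower or within 1.5-fold of the low dose. Between its 250 and 10 µg/mL libraries, 0 of 32 genes were more than 1.5-fold higher, where the share over all genes was 14.4%, and 15 were more than 1.5-fold lower, where it was 16.7%. The median log2 difference of the 32 was -0.43, beside 0.0085 over all genes. HSP90AA1 had 1683, 1346 and 331 CPM at 10, 50 and 250 µg/mL, and HSP90AB1 had 3141, 2352 and 778 CPM. Both HSP90 genes were lower at each higher dose. At the high dose HSP90AA1 lay below its lowest level in the 51 libraries of the replicated extracts, 1500 CPM. HSPD1 had 1643, 1379 and 536 CPM, and ST13, a cochaperone that stabilises the bound state of HSP70, had 258, 222 and 84.9 CPM.

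Inducible and constitutive members were not separated in polygala. HSPA1A had 93.8, 74.1 and 34.3 CPM at the rising doses and HSPA1B had 131, 143 and 77.7 CPM. HSPA8 had 1319, 1134 and 839 CPM, and HSPH1 had 133, 133 and 69.1 CPM. The log2 differences between high and low dose were -1.43 for HSPA9, -1.36 for HSPA4L, -1.25 for UBB, -1.21 for STIP1 and -1.09 for HSPB1. BAG3 differed by -0.39. The highest log2 differences of the 32 in polygala were those of HSF2 at 0.44, DEDD2, a death effector domain gene, at 0.30, DNAJB1 at 0.27 and HSF1 at 0.23. At 50 µg/mL 0 of the 32 genes had passed 1.5-fold in either direction, beside 0.762% of all genes higher and 1.06% lower, and their median was -0.12. Of the 14 CCT and prefoldin genes 6 were lower, CCT3 at 144 CPM, against 361. Of the other 9 targets and regulators 1 was higher and 2 lower, the collagen chaperone SERPINH1 at 33.7 CPM, against 135, and of 25 other cochaperones 1 was higher and 5 lower. The summed hepatocyte markers were 20531 CPM in the high-dose library, against 43781 CPM in the low-dose one, and all 8 were more than 1.5-fold lower. Their part in the differences of the chaperone genes was not tested.

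**Figure D3:**
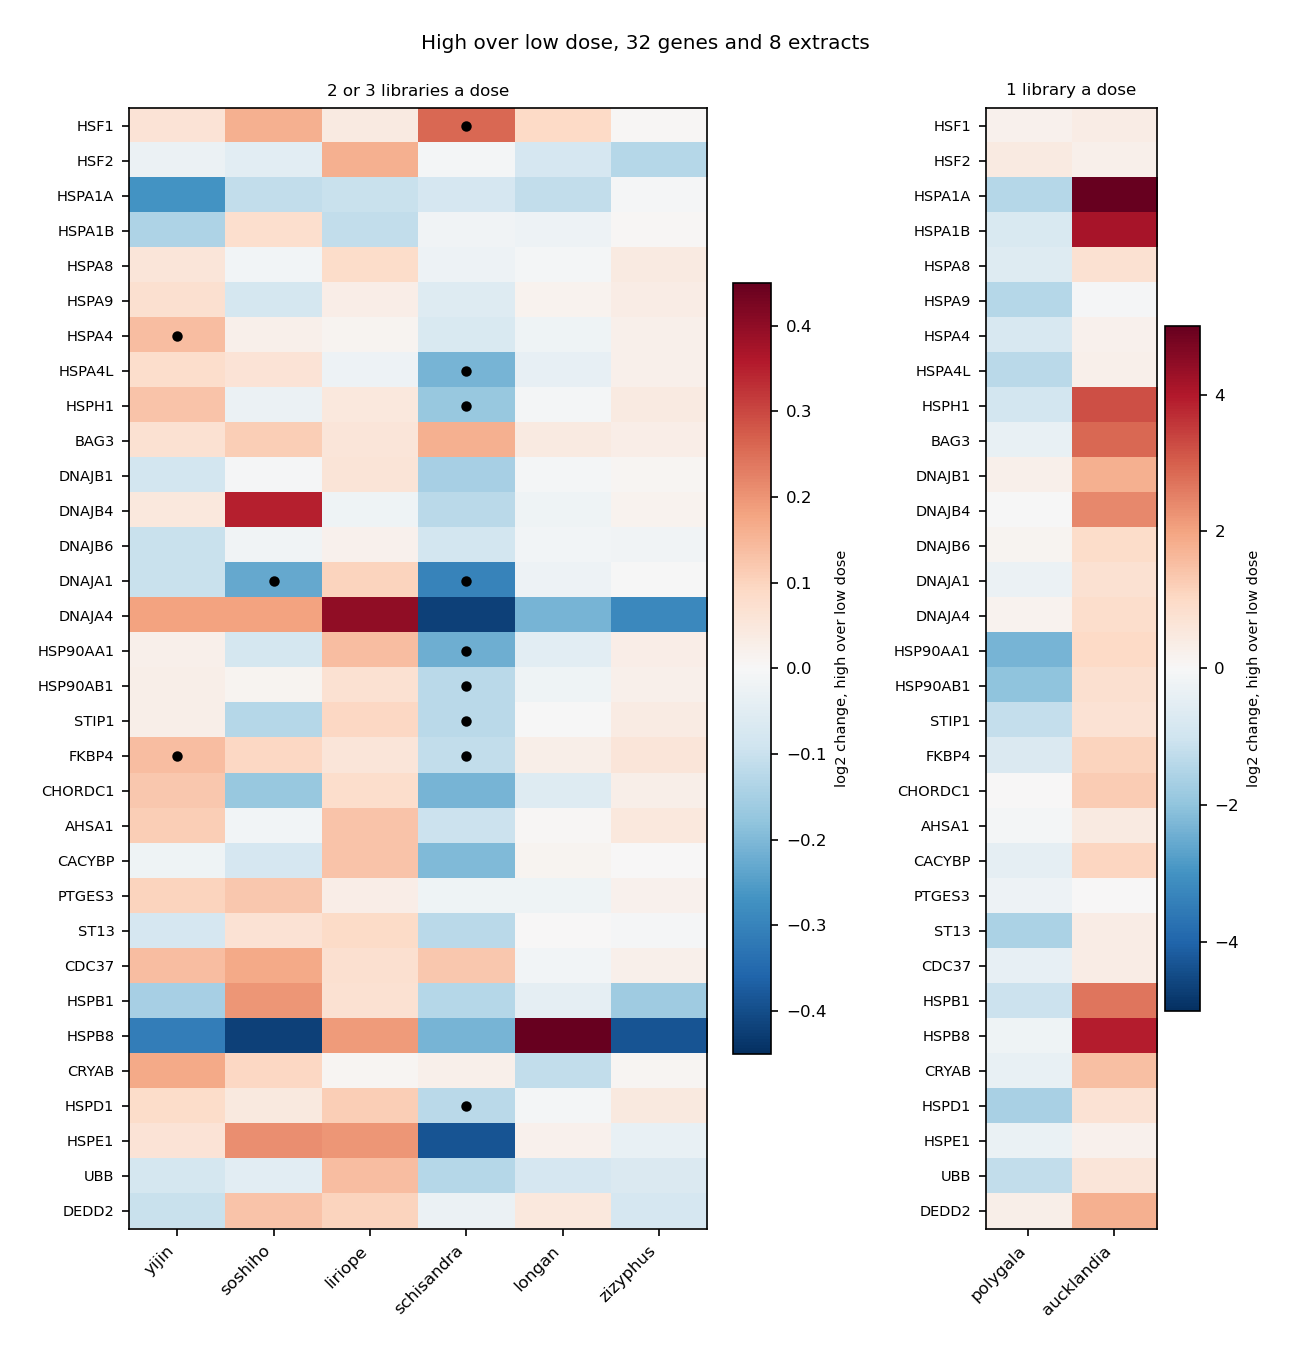
Log2 change of the 32 genes between high and low dose in the 6 replicated extracts (left) and in polygala and aucklandia (right, on the log2(CPM + 1) scale and with a wider colour scale); a black dot marks an adjusted p under 0.05. The dots number 9 in schisandra, 2 in yijin and 1 in soshiho, and aucklandia alone holds values above 2.

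Among the 6 replicated extracts, schisandra had the most calls among these genes when all replicated groups were fitted together. Between 500 and 20 µg/mL, 8 of 32 genes fell and 1, HSF1, rose at an adjusted p under 0.05 in edgeR's quasi-likelihood test with Benjamini-Hochberg adjustment over all genes. Of all genes tested 3.4% fell and 3.92% rose. Scaled by library size alone, 12 of the 32 fell and 1 rose, where 5.83% of all genes fell and 2.39% rose. The changes were small: the median of the 32 was -0.12 log2 units, beside -0.0058 over all genes, and 28 of the 32 values were below 0. The genes that fell came from several roles, namely the J protein gene DNAJA1, both HSP90 genes, the exchange factor genes HSPA4L and HSPH1, the cochaperone genes STIP1 and FKBP4, and HSPD1.

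DNAJA1 had 179, 187 and 186 CPM in the high-dose schisandra libraries, against 252, 223 and 208 CPM in the low-dose ones. The groups did not overlap, the log2 change was -0.30 (SE 0.047) and the adjusted p from edgeR was 9.8e-06. HSP90AA1 had 1534, 1532 and 1500 CPM at the high dose, against 1924, 1759 and 1655 CPM at the low dose, again without overlap. Its log2 change was -0.22 (SE 0.058), with an adjusted p from edgeR of 0.0119. HSPA4L, an HSP110 relative, had 44.6, 45.9 and 45.6 CPM at the high dose, against 54.3, 52.9 and 51.0 CPM at the low dose. HSPH1 had 115, 122 and 113 CPM at the high dose, against 131, 135 and 129 CPM at the low dose. Neither pair of groups overlapped, and the log2 changes were -0.21 (SE 0.065) for HSPA4L and -0.17 (SE 0.047) for HSPH1, with adjusted p of 0.0347 and 0.0177 from edgeR.

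The other 4 genes that fell changed by -0.11 to -0.12 log2 units. HSP90AB1 ranged from 2847 to 2942 CPM at the high dose of schisandra, against 3120 to 3194 CPM at the low dose, and HSPD1 from 1620 to 1704 CPM, against 1729 to 1952 CPM. HSF1, the factor gene, rose to 93.9, 86.3 and 89.6 CPM, against 65.8, 80.2 and 80.6 CPM at the low dose, a log2 change of 0.26 (SE 0.055) with an adjusted p from edgeR of 0.00145. The high-dose HSF1 values lay inside or just below the vehicle range of 86.5 to 95.9 CPM. The 65.8 CPM of schisandra low replicate 1 was the lowest HSF1 level among the 51 libraries of the replicated extracts. The HSF1 response in liriope minus that in schisandra was -0.22 log2 units, and -0.12 without that library. Neither difference passed (adjusted p from edgeR 0.212 and 0.714). DNAJB1 narrowly missed the threshold at -0.15 (SE 0.049, adjusted p from edgeR 0.0532), and HSPA1A and HSPA1B had log2 changes of -0.074 and -0.015 with adjusted p of 0.780 and 0.966.

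At 100 µg/mL of schisandra 0 genes of the 32 passed the edgeR test against the low dose, where 0.0709% of all genes passed. DESeq2 also called 0 of the 32. An unadjusted p under 0.05 was reached by 6, and the share of all genes that reached it is not given here. The mean levels lay between those of the other doses for DNAJA1 (211, 216 and 209 CPM) and HSP90AA1 (1656, 1726 and 1571 CPM). In fits to the high- and low-dose libraries of 1 extract alone, 0 of the 32 genes were called in schisandra in place of 9, against 5 in yijin and 7 in soshiho. The share of all genes called in those fits is not given here, so these counts do not rank the extracts. In the fit of all groups 3 were called without schisandra low replicate 1, and also 3 without high replicate 1 and without high replicate 3. For these fits too the share of all genes called is not given here. Without schisandra low replicate 1 DNAJA1 kept its call, while HSP90AA1 stood at -0.16 with an adjusted p from edgeR of 0.165. The same library held the highest levels in the series among the replicated extracts of HSPE1 (391 CPM, against 208 and 186 CPM in the other 2 low-dose libraries), CACYBP (94.8 CPM) and PTGES3 (334 CPM).

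**Figure D4:**
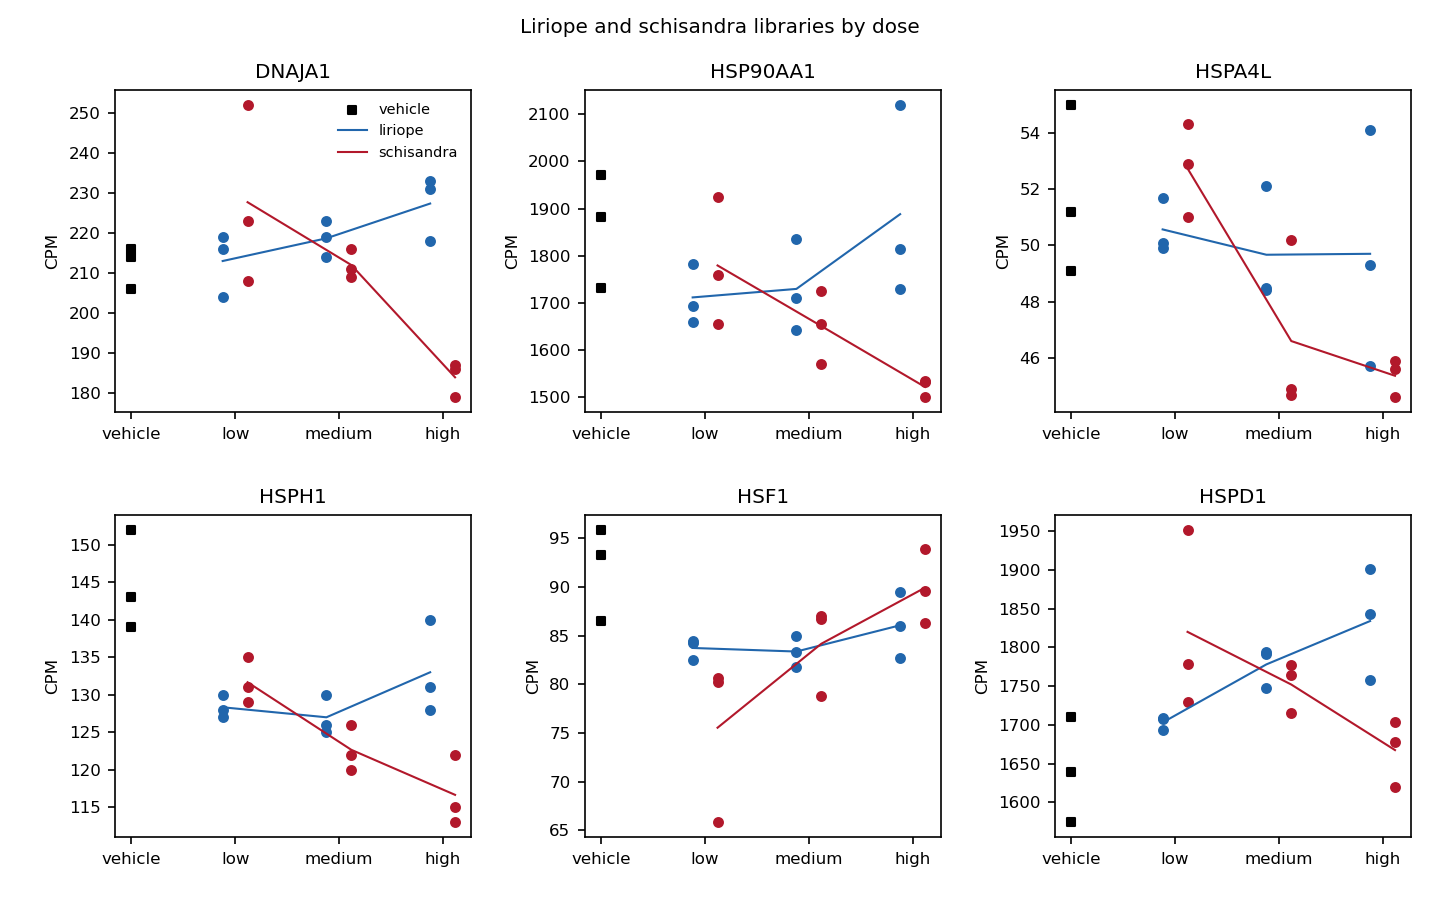
Level in CPM of DNAJA1, HSP90AA1, HSPA4L, HSPH1, HSF1 and HSPD1 in each vehicle library (black squares) and each library of liriope (blue) and schisandra (red) at low, medium and high dose; lines join the means. The schisandra means of the 5 genes other than HSF1 step down with dose, DNAJA1 reaching 179 to 187 CPM, and the schisandra mean of HSF1 steps up.

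The decoctions had few calls among these genes between their doses when all groups were fitted together. In yijin 2 of 32 genes rose and 0 fell between 500 and 20 µg/mL, where 3.78% of all genes rose and 4.01% fell, and 5 had higher and 3 lower values at an unadjusted p under 0.05. DESeq2 called 3 of the 32, and a fit to these yijin libraries alone 5. The shares of all genes called in these alternatives, or at an unadjusted p under 0.05, are not given here. Scaled by library size alone, 1 rose and 0 fell, where 2.43% of all genes rose and 4.35% fell. FKBP4 had 119 CPM in each of the 3 high-dose yijin libraries, against 107, 111 and 106 CPM in the low-dose ones. Its log2 change was 0.14 (SE 0.033) with an adjusted p from edgeR of 0.00454, and it did not pass with no filter on low counts. HSPA4, an HSP110 relative, had 215, 209 and 206 CPM at the high dose, against 197, 187 and 185 CPM at the low dose, a log2 change of 0.14 (SE 0.039) with an adjusted p of 0.0143 from edgeR that reached 0.0916 when single libraries were left out. HSPA1A stood at 78.8, 84.3 and 70.4 CPM, against 92.1, 99.7 and 89.0 CPM, without overlap, and its log2 change of -0.27 (SE 0.11) did not pass (adjusted p from edgeR 0.172). It passed with no filter on low counts (adjusted p 0.00150) and in the fit to these libraries alone (adjusted p 0.00727). It also passed with the replicate number as a block.

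In soshiho 1 of 32 genes fell and 0 rose by edgeR, and 4 had higher and 2 lower values at an unadjusted p under 0.05. DESeq2 also called 1, and a fit to these soshiho libraries alone 7. For these alternatives, and at an unadjusted p under 0.05, the shares of all genes are not given here. In the edgeR fit of all groups 2.27% of all genes fell and 2.81% rose. Scaled by library size alone, 2 of the 32 fell and 0 rose, where 2.81% of all genes fell and 2.21% rose. DNAJA1 had 189 and 188 CPM at the high dose, 212 and 210 CPM at the medium dose and 222 and 221 CPM at the low dose of soshiho. The groups did not overlap, and the log2 change between high and low dose was -0.23 (SE 0.057, adjusted p from edgeR 0.00683). Without any 1 of its 4 libraries the adjusted p was 0.0608 to 0.0905.

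Liriope, longan and zizyphus gave 0 calls among the 32 genes between high and low dose by edgeR and by DESeq2. The share called over all genes was 0.0295% in liriope, 0.0177% in longan and 0.0355% in zizyphus. In liriope 6 of the 32 had an unadjusted p under 0.05, all with higher values at the high dose. The median of the 32 was 0.070 log2 units, beside 0.0057 over all genes. The shares of all genes at an unadjusted p under 0.05 are not given here. The unadjusted counts in this paragraph are therefore not read as results about these genes. In longan and zizyphus 0 had an unadjusted p under 0.05 and the medians were -0.014 and 0.013. Between medium and low dose 0 of the 32 genes were called in any of the 6 replicated extracts by edgeR or DESeq2, with 2 at an unadjusted p under 0.05 in yijin and in soshiho, 0 in liriope and longan, 6 in schisandra and 1 in zizyphus. Of all genes 0.00591% were called in yijin and in zizyphus, 0.118% in soshiho, 0.0709% in schisandra and 0% in liriope and longan.

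The genes most used as readouts of the heat shock response had small differences between doses in all 6 replicated extracts. Between high and low dose, the log2 change of HSPA1A was -0.27 in yijin, -0.11 in soshiho, -0.10 in liriope, -0.074 in schisandra, -0.11 in longan and -0.0060 in zizyphus (SE 0.11 to 0.14). That of HSPA1B was -0.14, 0.077, -0.11, -0.015, -0.023 and 0.0049 in the same order (SE 0.12 to 0.14), and with both copies summed the change ran from -0.19 to 0.0062. Neither gene passed in any of the 6 in the fit of all groups as filtered and scaled here, without a block. The smallest adjusted p from edgeR was the 0.172 of HSPA1A in yijin, which passed under the alternatives named above. The log2 change was -0.022 to 0.083 for HSPA8, 0.030 to 0.16 for BAG3 and -0.15 to 0.058 for DNAJB1 over the 6 extracts, with no call. That of HSPH1 was 0.13, -0.027 and 0.049 in yijin, soshiho and liriope and -0.0080 and 0.041 in longan and zizyphus. In the same order that of HSP90AA1 was 0.024, -0.078, 0.14, -0.046 and 0.031, and that of HSF1 0.060, 0.16, 0.040, 0.088 and 0.0052. Each of these 3 genes passed in schisandra and not in the other 5. The test of a difference in response among the 6 extracts passed for HSPH1 and HSP90AA1 (adjusted p from edgeR 0.0388 and 0.0498). For HSF1 it did not pass (0.230). Without schisandra low replicate 1 it passed for neither HSPH1 (adjusted p from edgeR 0.0534) nor HSP90AA1 (0.171).

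The response between high and low dose differed among the 6 replicated extracts for 6 of the 32 genes (edgeR, 1 test of all 6 responses with Benjamini-Hochberg adjustment), where 5.52% of all genes differed. They were DNAJA1 (adjusted p from edgeR 2.1e-04), FKBP4 (0.00673), STIP1 (0.0306), HSPH1 (0.0388), HSPD1 (0.0459) and HSP90AA1 (0.0498). Between the 2 extracts of each sample code set, liriope and schisandra differed for 5 genes, where 2.71% of all genes differed. The log2 change of DNAJA1 was 0.10 in liriope, against -0.30 in schisandra, a difference of 0.40 (SE 0.066, adjusted p from edgeR 1.8e-04). The log2 change of HSP90AA1 was 0.14 in liriope, against -0.22 in schisandra, a difference of 0.36 (SE 0.082, adjusted p from edgeR 0.0121). The differences were 0.23 for HSPD1, 0.21 for STIP1 and 0.18 for HSP90AB1. Without schisandra low replicate 1, 2 genes differed among the 6 extracts, DNAJA1 and FKBP4, and 2 between liriope and schisandra, DNAJA1 and HSP90AB1; without liriope high replicate 2 the counts were 5 and 4. Scaled by library size alone, 3 genes differed among the 6 extracts. The shares of all genes under these alternatives, or at an unadjusted p under 0.05 in the pairs below, are not given here. Yijin and soshiho differed for 0 of the 32 by edgeR and by DESeq2 (5 with an unadjusted p under 0.05; 0.981% of all genes differed), and longan and zizyphus likewise for 0 (0 unadjusted; 0.0355% of all genes).

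Set against vehicle, 6 of the heat shock genes were lower in every library of the replicated extracts, as were 3.37% of all genes tested. HSPA1A, HSPA1B, HSPA8, BAG3, DNAJB1, DEDD2 and CDC37, the adaptor that brings kinases to HSP90, fell at the low dose of all 6 extracts, and all but CDC37 also at the high dose of all 6. The share of all genes that fell in all 6 extracts was not counted, and the 6 comparisons share their vehicle libraries, so they are not independent. Of the low-dose calls of these genes, all 6 of BAG3 and of DNAJB1 remained under each alternative run, and 5 of HSPA1A, HSPA8 and DEDD2, 3 of HSPA1B and 2 of CDC37. HSPA1A was lost in soshiho without low replicate 3 (adjusted p from edgeR 0.0908), and CDC37 was lost in 4 extracts with library size alone. At the high dose all 6 calls of HSPA1A, BAG3 and DEDD2 remained, 5 of HSPA8 and DNAJB1 and 4 of HSPA1B. HSPH1 passed in 5 extracts at the low dose and in 3 at the high dose, and HSPB1 in 1 and in 3.

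At the low dose 9 to 13 of the 32 genes fell in each extract, where the share of all genes that fell was 8.12% in yijin, 6.45% in soshiho, 8.96% in liriope, 11% in schisandra, 10.4% in longan and 8.76% in zizyphus. At most 2 of the 32 rose in an extract, where 7.11%, 5.48%, 7.62%, 10.5%, 9.74% and 7.79% of all genes rose in that order. The scaling moves this balance: by library size alone, the median log2 change of all genes was 0.13 to 0.14 at the low dose, beside 0.0043 to 0.015 as reported, and 5 to 8 of the 32 genes fell and 6 to 11 rose, where 1.85% to 4.14% of all genes fell and 19.3% to 29.3% rose. HSPD1, PTGES3 and HSPA9 were then higher in all 6 extracts. HSPA1A, BAG3 and DNAJB1 stayed lower in all 6 under this scaling, HSPA1A by 0.39 to 0.66 log2 units. All 6 comparisons share the same 3 vehicle libraries, which have their own sample code, so the extracts and whatever else sets the vehicle libraries apart cannot be told apart.

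HSPA1A had 70.5 to 105 CPM in the 17 low-dose libraries with a median of 85.0, against 126, 133 and 141 CPM in the vehicle libraries. Its log2 change against vehicle ran from -0.51 in yijin to -0.78 in schisandra (SE 0.11 to 0.13, adjusted p from edgeR 0.00164 to 2.8e-06). HSPA8 had 993 to 1261 CPM at the low dose with a median of 1102, against 1536, 1440 and 1402 CPM in vehicle. BAG3 had 34.5 to 39.8 CPM with a median of 36.9, against 49.5, 55.2 and 57.9 CPM in vehicle. DNAJB1 had 127 to 148 CPM with a median of 135, against 162, 177 and 166 CPM in vehicle. None of these ranges overlapped, and for HSPA1A, HSPA1B, HSPA8, BAG3, DNAJB1 and DEDD2 all 51 treated libraries lay below all 3 vehicle libraries, as did 3.37% of all genes tested. For 11 of the 32 genes all 17 low-dose libraries lay below vehicle, beside 7.1% of all genes, and for 0 genes all 17 lay above it, beside 4.84%.

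The rest of the 32 genes were not all lower than vehicle. At the low dose HSPD1 rose in soshiho and schisandra by 0.13 and 0.15 log2 units and PTGES3 in schisandra by 0.18. Both schisandra calls were lost without schisandra low replicate 1, and the soshiho call under 6 of 12 alternatives. HSP90AB1 fell in 4 extracts, by 0.085 to 0.12 log2 units, but with library size alone its changes were above 0 and did not pass. ST13 fell in 5 extracts and HSPH1 in 5, and all 10 of these calls were lost with library size alone. HSF1 fell in 3, soshiho, schisandra and longan, while its 6 changes ran from -0.12 to -0.29; each of the 3 calls was lost under 1 to 4 alternatives. Values of HSPA4, FKBP4, DNAJB6 and DNAJA1 stayed between -0.059 and 0.10 log2 units in all 6 extracts and passed in none as scaled here. The polygala and aucklandia low-dose libraries, in a further code set, had 93.8 and 95.4 CPM of HSPA1A and 43.1 and 41.4 CPM of BAG3, also below the lowest vehicle library. With HSPA1A and HSPA1B summed into 1 gene, the log2 change against vehicle ran from -0.47 in longan to -0.74 in schisandra at the low dose.

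**Figure D5:**
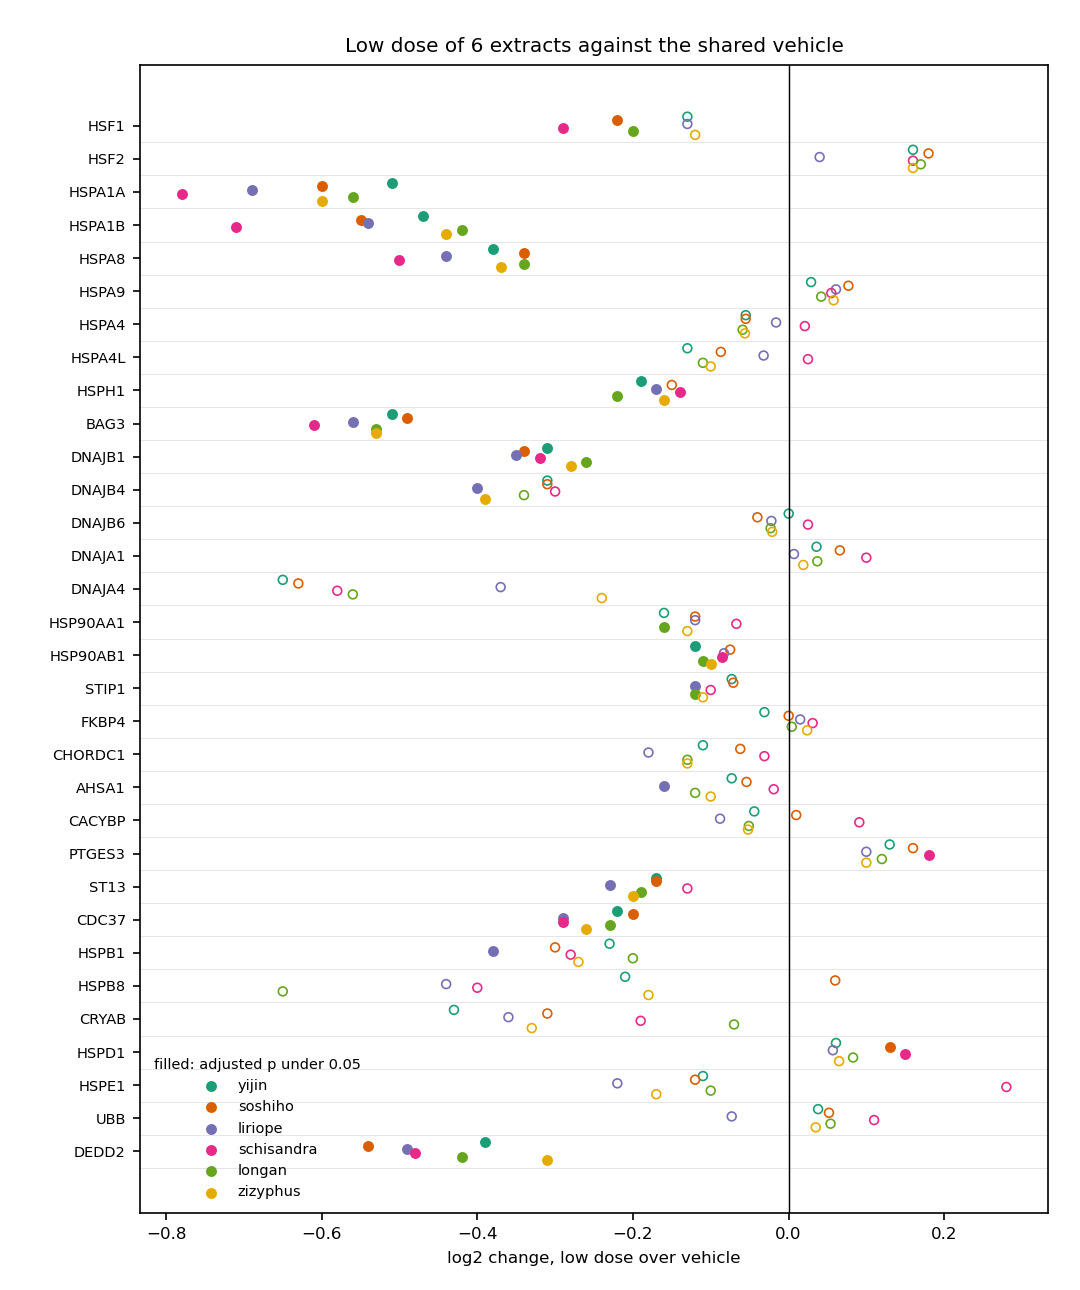
Log2 change of each of the 32 genes between the low dose of each of the 6 replicated extracts (1 colour per extract) and the same 3 vehicle libraries; filled points have an adjusted p under 0.05. HSPA1A lies between -0.51 and -0.78 in all 6 extracts, and HSF2, HSPA9, DNAJA1, HSPD1 and PTGES3 lie above 0 in all 6.

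At the high dose the same comparison gave 9 genes lower in yijin, 11 in soshiho, 9 in liriope, 17 in schisandra, 12 in longan and 9 in zizyphus. The shares of all genes that fell were 12.2%, 11.1%, 8.21%, 11.2%, 9.98% and 8.73% in that order. Genes that rose at the high dose were HSPD1 in yijin, soshiho, liriope and zizyphus, PTGES3 in yijin, soshiho and schisandra, and FKBP4 and HSPA9 in yijin, where 11.1% (yijin), 10.6% (soshiho), 8.56% (liriope), 10.8% (schisandra), 9.64% (longan) and 8.15% (zizyphus) of all genes rose. The log2 change of HSPA1A against vehicle was -0.78 in yijin, -0.71 in soshiho, -0.79 in liriope, -0.86 in schisandra, -0.67 in longan and -0.61 in zizyphus. HSP90AA1, which passed at the low dose only in longan, fell at the high dose in soshiho (-0.20), schisandra (-0.29) and longan (-0.20). The low-dose call in longan was lost under 9 of 13 alternatives, that of soshiho at the high dose under 5 of 12 and that of longan at the high dose under 2 of 13, while the schisandra call remained under all 13. Scaled by library size alone, 6 to 12 of the 32 genes fell at the high dose and 3 to 7 rose, where 3.02% to 5.86% of all genes fell and 18.9% to 24.1% rose.

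Related genes outside the 32 behaved as follows between high and low dose of the replicated extracts. SQSTM1, an autophagy receptor and reported heat shock factor target, rose by 0.46 (SE 0.038) in yijin, 0.63 (SE 0.046) in soshiho and 0.55 (SE 0.038) in schisandra (adjusted p from edgeR 3.9e-12, 8.6e-14 and 1.0e-14). DNAJB5 fell by 0.59 log2 units in yijin. Of 9 tested other targets and regulators 1 was thus higher in each of these 3 extracts and 1 lower in yijin. Of 25 other cochaperones 3 rose in yijin (FKBP5 by 0.18, BAG2 by 0.33 and PPID by 0.27), 1 in soshiho (BAG2 by 0.31) and 1 fell in schisandra (DNAJC7 by 0.13). Of 14 CCT and prefoldin genes 4 fell in schisandra, TCP1 by 0.13, CCT8 and CCT2 by 0.15 and VBP1 by 0.27.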

How the data were processed

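RNA with an integrity number above 7 was made into libraries with a directional MGIEasy kit and read as 100 bp pairs on an MGIseq instrument, per the labels' protocols. The deposited values are expected counts per gene, which per the submitters' processing notes came from FastQC 0.11.9, Trim Galore 0.6.5, STAR 2.7.3a on hg38 and RSEM 1.3.3, the last of which divides a read with several matches among its genes. Which annotation release they used is not given in the sources used here. A fractional part was present in 10.4% of the deposited expected counts, and each value was rounded before testing. Positions and exon lengths came from GENCODE 29, and promoter windows from RefSeq on GRCh38.p14.

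The 54 libraries of the 19 replicated groups entered 1 fit in edgeR 4.0.16 under R 4.3.3 (quasi-likelihood test, trimmed mean of M values, filter on low counts by group, Benjamini-Hochberg adjustment within each comparison, threshold 0.05), which left 16924 genes. CPM were scaled over all 60 libraries, which moved them by at most 1.32% against scaling over the 54. Each level is a share of its library, which hides any shift in the total RNA of a cell, and in bulk RNA fewer cells of a type and less RNA per cell cannot be told apart. Polygala and aucklandia were compared as log2(CPM + 1) with a pseudocount of 1 and a fold of 1.5, without a test. Of 51 replicate pairs 0 were identical, and their chi-square per degree of freedom ran from 2.70 to 63.9. The genes and lists were chosen with earlier results of these data known. In each replicated extract, values of every library are given for the 4 genes with the largest change between high and low dose among those called in both high vs low and high vs vehicle with 1 sign. HSF1, HSPA1A, HSPA1B, HSPH1, DNAJB1, BAG3, HSP90AA1 and HSPA8 are reported wherever they bear on a comparison, and in polygala and aucklandia the 4 genes with the largest difference and at least 5 CPM. HSPA4 in yijin and HSF1 and HSPD1 in schisandra, called in high vs low alone, were chosen after their values were seen. So were HSP90AB1 in schisandra, called in both comparisons but outside those 4 genes, HSPA6, and the other genes named with aucklandia and polygala. Alternatives were another scaling, library size alone, DESeq2 1.42.0, no filter, a fit to the libraries compared alone, the replicate number as a block, leaving out each library, and HSPA1A and HSPA1B summed.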

Additional observations from a re-analysis of the deposited data

Results flagged for a closer look

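Differences between extracts in the response to dose were found for 6 of the 32 genes in 1 edgeR test over all 6 replicated extracts. The adjusted p was 2.1e-04 for DNAJA1, 0.00673 for FKBP4, 0.0306 for STIP1, 0.0388 for HSPH1, 0.0459 for HSPD1 and 0.0498 for HSP90AA1. Between liriope and schisandra, the response differed at an adjusted p from edgeR of 1.8e-04 for DNAJA1, 0.0121 for HSP90AA1, 0.0183 for HSP90AB1, 0.0189 for HSPD1 and 0.0337 for STIP1. DNAJA1 had the largest of these differences, 0.40 log2 units, higher in liriope, and its call remained without schisandra low replicate 1 and without liriope high replicate 2. The calls of HSP90AA1, HSPD1 and STIP1 did not remain without schisandra low replicate 1, and the cause was not tested.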

How the results depend on the processing

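Counts of called genes among the 32 moved by over 1.5 times in the following cases, and the cause was not tested. In yijin high vs low (2 called) the count was 1 with library size alone, 1 with no filter, 5 with the libraries compared alone and 4 with the replicate number as a block. In soshiho high vs low (1 called) it was 2 with library size alone and 7 with the libraries compared alone. In schisandra high vs low (9 called) it was 0 with the libraries compared alone. Between medium and low dose, with 0 called as reported, it was 1 with no filter in yijin and in schisandra and 2 with the libraries compared alone in soshiho. Against vehicle it was 4 with the libraries compared alone in liriope at the high dose (10 called), 19 with library size alone and 7 with the libraries compared alone in schisandra at the low dose (12 called), and 7 with the libraries compared alone in zizyphus at the low dose (11 called). The difference among the 6 extracts (6 called) gave 3 with library size alone. For most of these alternatives the share of all genes called is not given here, so the counts are not read as results about these genes. In aucklandia 22 genes passed 1.5-fold and 14 passed 2-fold.

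Leaving out single libraries gave 3 to 12 calls in schisandra high vs low, 1 to 2 in yijin and 0 to 0 in soshiho. Against vehicle it gave 8 to 13 for soshiho at the high dose, and 3 to 9 for soshiho and 7 to 11 for zizyphus at the low dose. Leaving out schisandra low replicate 1 or liriope high replicate 2, chosen after seeing the data, gave 2 to 5 calls for the difference among 6 extracts and 2 to 4 for liriope against schisandra. The alternatives were applied to single genes against vehicle after seeing the data. With library size alone, where the median log2 change of all genes against vehicle was 0.10 to 0.14, 7 called changes against vehicle turned their direction, none of them then called. HSP90AB1 stood at 0.0055 in yijin, 0.045 in schisandra, 0.026 in longan and 0.031 in zizyphus at the low dose and at 0.011 in yijin at the high dose, and STIP1 at 0.014 in liriope and 0.0092 in longan at the low dose. No other called change of the 32 genes between high and low dose or against vehicle turned its direction.

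The replicate numbers were not taken to pair the libraries: same-numbered libraries correlated from -0.722 to 0.750 in their deviations from group means, and 9 of 15 high-dose libraries correlated best with the low-dose library of their own number. With the replicate block, HSPA1A fell (-0.27, adjusted p from edgeR 0.00704) and HSPH1 rose (0.13, 0.0165) in yijin, and DNAJB1 fell in schisandra (-0.16, 0.00589). Counts of low genes such as DNAJA4 limit what a change in them could show, and polygala and aucklandia have no replicate.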
